A study of Mus musculus with 12 samples.

Results

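Endocardial and endothelial marker genes were examined in hearts from which the RNA helicase gene Ddx3x had been deleted in cardiomyocytes. These genes were chosen as markers of endocardium and vessels, cells outside the deleted lineage. The members were 33 genes taken from a list of symbols that was chosen with earlier results of these data known. All 33 had values in every pool, among 17165 such genes and 21783 genes listed. They comprised 6 receptors (5 receptor tyrosine kinases and endoglin), 9 junction and surface adhesion proteins, 9 other surface or secreted proteins and 9 transcription factors. The embryos were mice at embryonic day 10.5 and all pools are labelled female. The control group, WT, carried the floxed allele (Ddx3x fl/fl), and the deleted group, Ddx3x CM-KO, carried floxed Ddx3x with Tnnt2-Cre, whose promoter is active in cardiomyocytes. Each genotype had 3 pools of 20 whole hearts, and each pool gave an RNA library and a library of ribosome-protected footprints, the RNA fragments that ribosomes shield from RNase I. The study's title names translation of structured cardiac mRNAs by DDX3X as its question. In whole hearts, fewer cells of a type and less RNA per cell cannot be told apart. Nor can a value be assigned to one cell type, and not every marker is restricted to endothelium.

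The endocardium is the endothelium that lines the heart chambers. At this stage it faces the trabeculating myocardium, receives VEGF and angiopoietin signals from neighbouring cells and gives rise to the mesenchyme of the valve cushions. Endothelial identity is kept by ETS and SOXF transcription factors, while KLF factors respond to blood flow. VE-cadherin and claudin-5 seal the junctions between the cells.

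RNA libraries held from 14.7 M to 19.9 M counts, and footprint libraries from 7.31 M to 14.3 M. Levels are given as CPM, counts scaled to a common library total, after TMM scaling within each kind of library, so an RNA level and a footprint level are not on one scale. Ddx3x itself was at 303 ± 8.95 CPM in WT RNA and 239 ± 36.0 in CM-KO RNA (SD, n = 3 pools), or -0.34 ± 0.0982 (SE) on the log2 scale, with an adjusted p of 0.0883. All adjusted p-values are from the quasi-likelihood test in edgeR, adjusted by the Benjamini-Hochberg method, unless another tool is named. The Y-linked gene Uty was listed with 174, 108 and 11 RNA counts in CM-KO pools 1, 2 and 3 and was blank in the WT pools, which goes against the label of female pools for at least CM-KO pools 1 and 2. The called results and those of several markers near the threshold are therefore also given from CM-KO pool 3 alone against the 3 WT pools, where the lone pool is assumed to vary like the WT pools.

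The defining markers of the lineage were well measured in the control hearts. Per kilobase of exon, WT RNA was highest for Npr3, a natriuretic peptide clearance receptor of the endocardium, at 106 CPM per kilobase. Eng, the TGF-beta co-receptor endoglin, followed at 69.5, Plvap, the protein of fenestral and caveolar diaphragms, at 69.4, and Cdh5, which encodes VE-cadherin, at 54.6. The angiopoietin receptor gene Tek stood at 47.6 CPM per kilobase. The 5 lowest were Robo4, a guidance receptor, at 0.965, the hyaluronan receptor gene Lyve1 at 1.07, Sox17 at 1.90, the claudin gene Cldn5 at 3.04 and Klf4 at 3.33. Cldn5 had as few as 39 RNA counts and Sox17 as few as 26 footprint counts in a pool. The standard errors of the RNA fold changes were widest for Cldn5 (0.279), Robo4 (0.212), Lyve1 (0.212) and Sox17 (0.185), while that of Klf4 was 0.125.

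**Figure D1:**
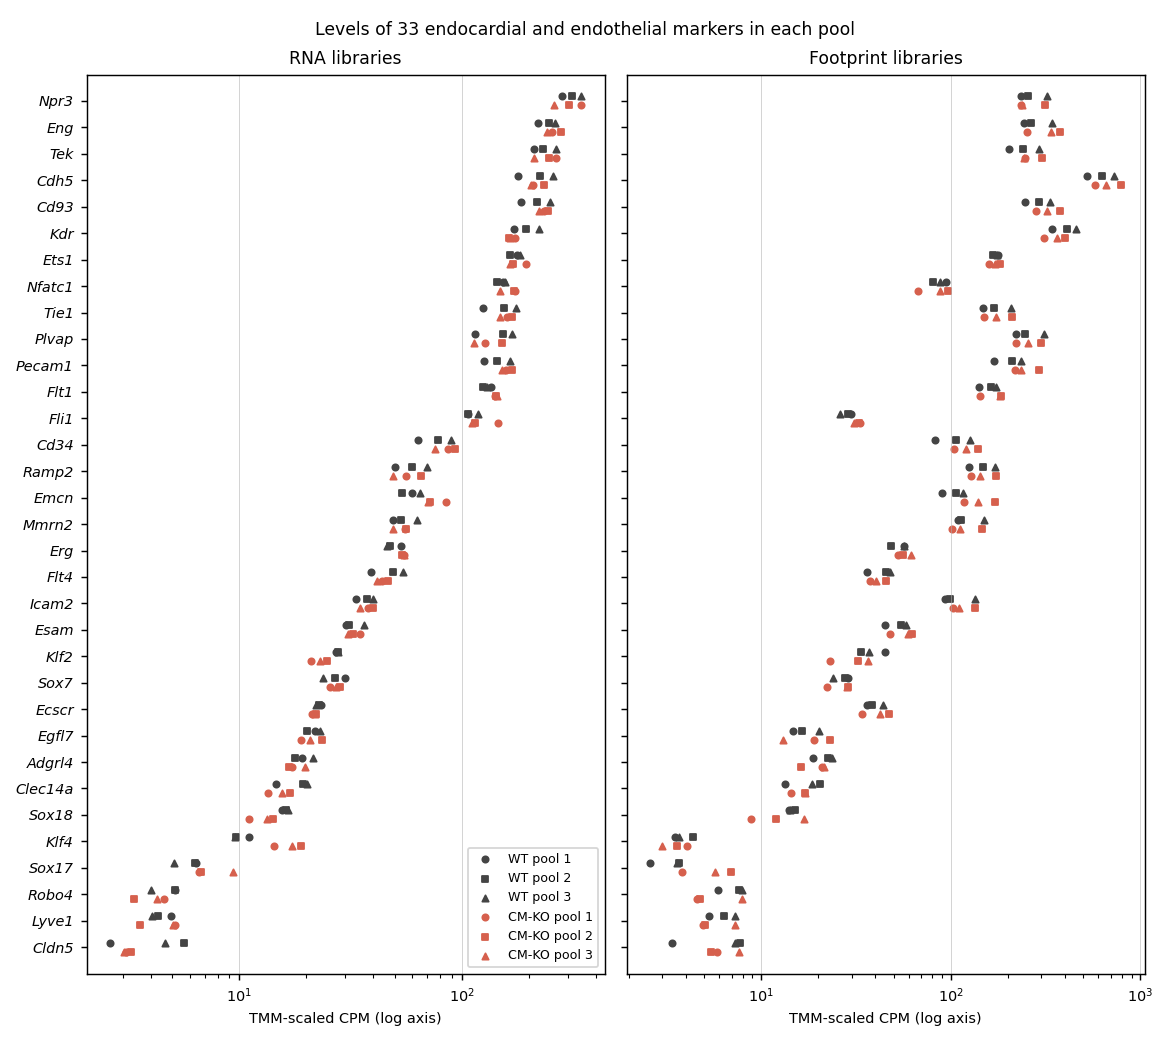
Level of each of the 33 markers in each pool, as TMM-scaled CPM on a log axis, for RNA libraries (left) and footprint libraries (right), with genes in order of RNA level; dark symbols are WT and red symbols CM-KO, and the symbol shape gives the pool. For most genes the dark and red symbols interleave, and Klf4 RNA lies at 9.55 to 11.1 CPM in WT against 14.3 to 19.0 in CM-KO.

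Marker RNA as a whole was about as abundant in the CM-KO hearts as in the controls. Of the 33 genes, 1 rose (Klf4) and none fell at an adjusted p under 0.05, where 4.37% of all 17147 genes tested changed, 3.57% being higher and 0.805% lower. At an unadjusted p under 0.05 there were 6 of the 33 and 2758 of all genes. The median log2 fold change was 0.01 for the markers and 0.01 for all genes, with 18 markers above 0 and 15 below, and 27 of the 33 had an absolute log2 fold change under 0.25. The 95% interval lay entirely within 0.5 of 0 for 25 markers, against 58.1% of all genes. DESeq2 called 2 of the 33, and the authors' deposited table also has 2 under 0.05, Klf4 and Emcn.

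Marker footprints gave a like picture at lower precision, the median half-width of the 95% intervals being 0.315 on the log2 scale against 0.225 for RNA. No marker changed by the edgeR quasi-likelihood test, while 2 of the 33 and 1351 of all 15249 genes had an unadjusted p under 0.05, and DESeq2 called none of the markers. The background was 0.23% of genes called. The median log2 fold change was 0.03, against -0.01 for all genes, and 21 markers had a 95% interval within 0.5 of 0, against 52.4% of all genes. Deviations of same-numbered footprint pools correlated across genotypes with r = 0.423, 0.179 and 0.144 for pools 1, 2 and 3. Same-numbered RNA pools gave -0.251, 0.21 and -0.538. The labels give the number as a replicate and name no batch. With that number as a block the count of genes called went from 35 to 203, and 1 marker, Emcn, rose. Leaving out single pools took the count of all genes called from 1 to 94.

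**Figure D2:**
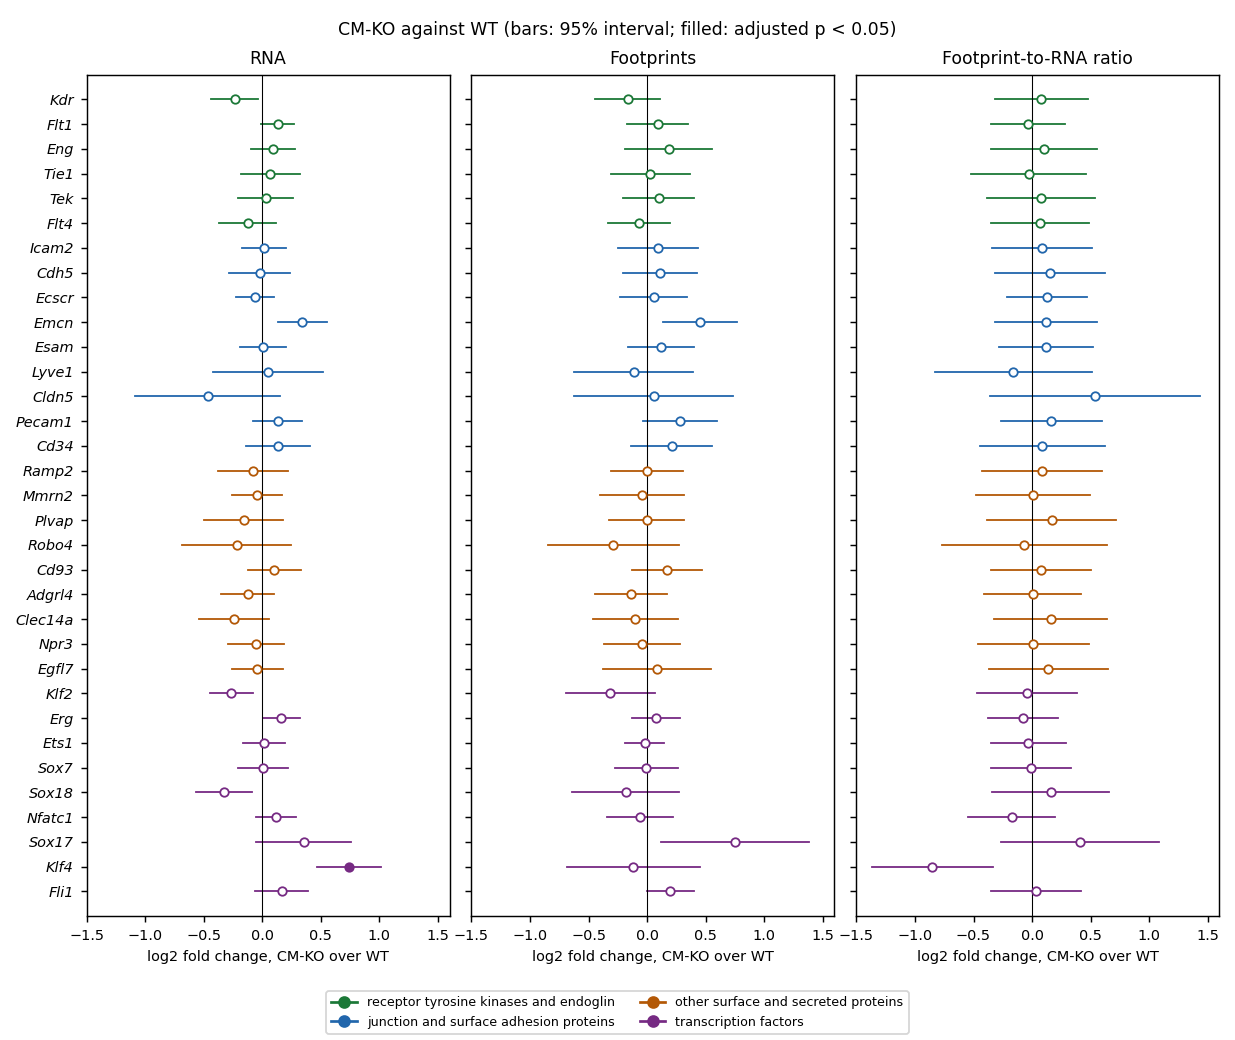
Log2 fold change of each marker, CM-KO over WT, for RNA (left), footprints (middle) and the footprint-to-RNA ratio (right); bars are 95% intervals, filled symbols have an adjusted p under 0.05, and colours give the role. Klf4 RNA, at 0.74, is the filled symbol, and most other intervals cross 0.

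Among the receptors none passed the test in RNA or footprints, and their RNA fold changes ran from -0.23 to 0.13 on the log2 scale. Kdr encodes VEGFR2, the main signalling receptor for VEGF-A. Its RNA was 171, 195 and 222 CPM in WT pools 1, 2 and 3 and 172, 163 and 165 in the CM-KO pools. The CM-KO values were close together, and pool 1 alone of them was above the lowest WT pool, with an estimated log2 fold change of -0.23 (SE 0.091, adjusted p = 0.222), and the value was below 0 under all 13 alternative settings. Without WT pool 3 it was -0.12, and from CM-KO pool 3 alone -0.25 (adjusted p = 0.631). Kdr footprints were 341, 412 and 456 CPM in WT, against 312, 402 and 362 in CM-KO, so the genotypes overlapped (log2 fold change -0.17, adjusted p = 0.795). Tek, the receptor for angiopoietins, had RNA of 210.2, 231 and 265 CPM in WT, against 266, 245 and 210.1 in CM-KO, nearly the same range in both genotypes (log2 fold change 0.03, SE 0.105). Its footprints, at 204, 242 and 293 CPM in WT, against 247, 302 and 243 in CM-KO, overlapped as well. RNA of Flt1, the VEGF receptor that acts largely as a decoy in the embryo, was higher in every CM-KO pool, at 141 to 144 CPM against 125 to 136, but did not pass the test (log2 fold change 0.13, adjusted p = 0.342). For Eng, for the TIE2 partner Tie1 and for the VEGF-C receptor gene Flt4 the RNA fold changes were 0.09, 0.07 and -0.12.

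Of the 9 adhesion genes, Emcn stood apart from the rest without passing the test in the 6-library comparison. Emcn encodes endomucin, a sialomucin on the surface of endocardium and veins. Its RNA was 59.8, 54.1 and 65.1 CPM in the WT pools and 85.0, 71.9 and 70.4 in the CM-KO pools. Every CM-KO pool was above every WT pool, with an estimated log2 fold change of 0.34 (SE 0.0931, 95% interval 0.14 to 0.55, adjusted p = 0.0692). Emcn footprints were 89.9, 107 and 116 CPM in WT, against 118, 171 and 139.7 in CM-KO, again without overlap. The footprint log2 fold change was 0.45 (SE 0.139, adjusted p = 0.345), and 0.44 with an adjusted p of 0.0321 when pools were blocked by number. Emcn RNA passed the test with DESeq2 (adjusted p = 0.031) and in edgeR without WT pool 3 (0.43, adjusted p = 0.0204), and from CM-KO pool 3 alone it was 0.24 for RNA (adjusted p = 0.542) and 0.42 for footprints (adjusted p = 0.391).

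Cdh5 and Pecam1, the markers most used to define endothelium, overlapped between genotypes. Cdh5 RNA was 179, 223 and 256 CPM in WT, against 209, 234 and 205 in CM-KO, a log2 fold change of -0.02 (95% interval -0.28 to 0.24). Cdh5 footprints, the most abundant of the 33 genes per kilobase of coding sequence, were 525, 629.7 and 725 CPM in WT, against 581, 792 and 661 in CM-KO. Pecam1, which encodes the junctional receptor CD31, had RNA of 126, 144 and 165 CPM in WT, against 158, 168 and 151 in CM-KO (log2 fold change 0.13, SE 0.0953). Its footprints were 169, 211 and 235 CPM in WT, against 218, 293 and 236 in CM-KO (0.28, adjusted p = 0.627). Both markers thus had their lowest value of either assay in WT pool 1. Cldn5, the tight-junction claudin, was the least certain of the group. Its RNA was 2.63, 5.64 and 4.65 CPM in WT, against 3.11, 3.25 and 3.04 in CM-KO, and the WT pools spanned the CM-KO pools (log2 fold change -0.47, 95% interval -1.08 to 0.15). The remaining 5 were Icam2, Esam, Ecscr, Cd34 and Lyve1, of which Icam2 and Esam encode adhesion molecules of the immunoglobulin family and Cd34 a sialomucin, and their RNA fold changes lay between -0.06 and 0.13.

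The 9 other surface and secreted proteins included no gene that changed in either assay, and 8 of the 9 had RNA fold changes below 0, with a median of -0.07. Npr3 RNA was 283, 312 and 342.5 CPM in WT, against 343, 302 and 258 in CM-KO, with the top and bottom values both in CM-KO pools. Npr3 footprints were 234, 257 and 320.5 CPM in WT, against 234, 314 and 238 in CM-KO. The group's extremes in RNA were Clec14a, a C-type lectin-like protein of vessels, at -0.24 (SE 0.133, adjusted p = 0.448) and the complement-like receptor gene Cd93 at 0.10. Between them lay Plvap, the adrenomedullin co-receptor gene Ramp2, the matrix protein gene Mmrn2, the guidance receptor gene Robo4, the adhesion GPCR gene Adgrl4 and Egfl7, a secreted endothelial factor.

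The transcription factors held both the gene that rose and most of the genes near the threshold. Klf4, a zinc finger factor that endothelium expresses under laminar flow, had RNA of 11.1, 9.71 and 9.55 CPM in the WT pools and 14.3, 19.0 and 17.3 in the CM-KO pools. All CM-KO pools were above all WT pools, and the log2 fold change was 0.74 (SE 0.125, 95% interval 0.46 to 1.02, adjusted p = 0.00837). Klf4 footprints overlapped between genotypes, at 3.49, 4.35 and 3.68 CPM in WT, against 4.06, 3.61 and 2.98 in CM-KO (log2 fold change -0.12, 95% interval -0.69 to 0.45, adjusted p = 0.943). These rested on 32 to 42 footprint counts in a pool. The RNA call was lost without WT pool 2 (0.70, adjusted p = 0.0519), without CM-KO pool 2 (0.65, adjusted p = 0.0596) and from CM-KO pool 3 alone (0.78, adjusted p = 0.110). Under all 13 alternative settings the RNA value was above 0.

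The promoters of Klf4 and Emcn are shown because these were the genes called in RNA by at least one of the tools used. They are RefSeq windows from 250 bases before to 50 bases after the start, in build GRCm38.p6, and 17 of the 33 members had a window. Capitals mark matches on either strand to GGGCGG (GC box), CAGGAA (ETS) or ACAAT (SOX).
Klf4, chr4:55532426-55532725, minus strand: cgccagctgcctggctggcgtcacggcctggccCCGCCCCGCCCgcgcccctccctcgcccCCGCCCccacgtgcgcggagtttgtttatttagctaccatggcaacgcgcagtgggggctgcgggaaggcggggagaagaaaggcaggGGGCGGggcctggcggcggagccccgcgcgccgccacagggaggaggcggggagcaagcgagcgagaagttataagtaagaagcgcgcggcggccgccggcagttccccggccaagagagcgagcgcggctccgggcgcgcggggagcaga
Emcn, chr3:137340828-137341127, plus strand: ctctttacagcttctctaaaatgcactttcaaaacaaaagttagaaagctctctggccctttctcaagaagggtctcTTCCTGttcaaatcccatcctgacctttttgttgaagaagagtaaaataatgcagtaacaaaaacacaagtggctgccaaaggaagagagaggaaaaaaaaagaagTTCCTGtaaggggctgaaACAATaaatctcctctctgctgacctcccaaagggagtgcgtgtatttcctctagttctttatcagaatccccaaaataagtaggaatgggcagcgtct
The Klf4 window held 4 GC boxes, of which the first 2 share a base, and neither the ETS nor the SOX letters. The Emcn window held CAGGAA in 2 places and ACAAT in 1, and no GC box. The 17 member genes had 21 windows. GGGCGG was present in 35.7% of all 32851 promoter windows and in 8 of the 21 member windows. CAGGAA was present in 30.6% and in 10 member windows (9 genes), and ACAAT in 31.0% and in 6 member windows. A second ETS form, CCGGAA, was in 14.9% of windows and in 2 member windows, of Adgrl4 and Kdr, and TATAAA in 13.6% and in 2, of Erg and Flt1.

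Klf2, the close relative of Klf4 in the response to flow, had the opposite sign. Its RNA was 27.3, 27.7 and 27.7 CPM in WT, against 21.0, 24.8 and 23.1 in CM-KO, so that every CM-KO pool was below the WT pools, but it did not pass the test (log2 fold change -0.26, SE 0.0816, adjusted p = 0.115). Klf2 footprints were 45.1, 33.8 and 36.9 CPM in WT, against 23.0, 32.5 and 36.8 in CM-KO (-0.32, adjusted p = 0.661). From CM-KO pool 3 alone the Klf2 values were -0.25 for RNA and -0.07 for footprints (adjusted p = 0.44 and 0.981). The difference between Klf2 and Klf4 in response was not tested.

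The SOXF factors, which act in arterial and lymphatic fate, did not move as a block. Sox17 RNA was 6.41, 6.34 and 5.10 CPM in WT, against 6.61, 6.77 and 9.37 in CM-KO, and its footprints were 2.59, 3.67 and 3.59 CPM in WT, against 3.80, 6.93 and 5.68 in CM-KO. Both assays were without overlap and higher in CM-KO, with log2 fold changes of 0.35 (SE 0.185, adjusted p = 0.41) for RNA and 0.75 (SE 0.281, adjusted p = 0.452) for footprints. Sox17 RNA was at 0.17 without CM-KO pool 3 and at 0.66 from that pool alone (adjusted p = 0.395), where footprints gave 0.80 (adjusted p = 0.612). Sox18 RNA was lower in every CM-KO pool, at 11.1, 14.1 and 13.3 CPM against 15.6, 16.2 and 16.6 in WT (log2 fold change -0.33, SE 0.108, adjusted p = 0.139), and from CM-KO pool 3 alone it gave -0.27 (adjusted p = 0.546). Sox18 footprints overlapped, at 14.1, 15.1 and 14.2 CPM in WT, against 8.88, 11.9 and 16.8 in CM-KO. Sox7 gave log2 fold changes of 0.01 for RNA and -0.01 for footprints.

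Among the ETS factors, Fli1 RNA was 106, 106 and 118 CPM in WT, against 145, 115 and 111 in CM-KO. Fli1 footprints were 29.9, 28.7 and 26 CPM in WT, against 33.4, 32.8 and 30.9 in CM-KO, without overlap, an estimated log2 fold change of 0.20 (SE 0.0898, adjusted p = 0.574), and 0.14 from CM-KO pool 3 alone (adjusted p = 0.93). Erg RNA was higher in every CM-KO pool, at 54.1 to 55.0 CPM against 45.9 to 53.1 (0.16, adjusted p = 0.292), and Ets1 RNA gave 0.02. Nfatc1, the calcium-regulated factor that marks endocardium of the valve-forming regions, had RNA of 152, 144 and 156.5 CPM in WT, against 173, 171 and 148 in CM-KO (0.12, SE 0.0777, adjusted p = 0.563). Its footprints were 94.3, 81.0 and 88.1 CPM in WT, against 67.3, 97.4 and 87.4 in CM-KO. CM-KO pool 1 held the highest Nfatc1 RNA and the lowest footprints of the 6 pools.

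Over the 33 genes, WT and CM-KO pools were fully separate in RNA for 7, of which 5 were higher in CM-KO (Klf4, Emcn, Sox17, Flt1 and Erg) and 2 lower (Klf2 and Sox18). The same held for 21.7% of all genes tested. For footprints it was 3 genes, Emcn, Sox17 and Fli1, all higher, against 14.8% of all genes. Both counts are near or below the background.

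**Figure D3:**
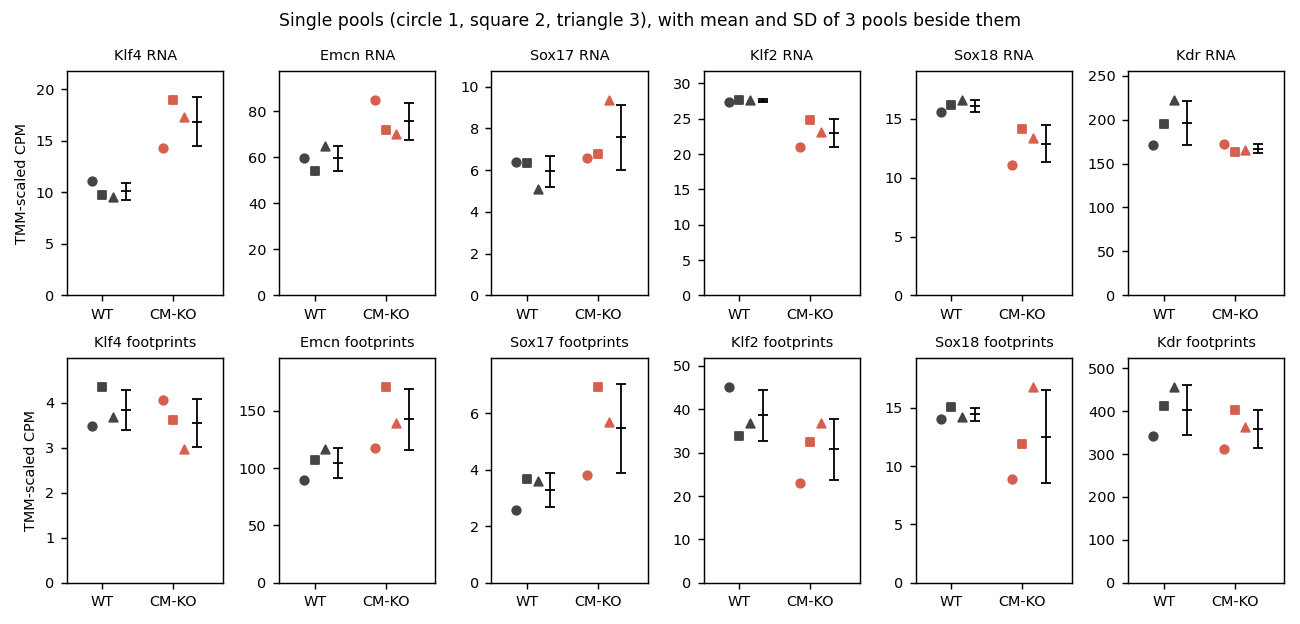
TMM-scaled CPM in each pool for 6 markers, with RNA above and footprints below; symbols are single pools (circle 1, square 2, triangle 3), and the bar beside each group is the mean with the SD over 3 pools, on axes that start at 0. Klf4 RNA goes from 10.1 ± 0.838 to 16.9 ± 2.38 CPM while its footprints stay at 3.84 ± 0.45 and 3.55 ± 0.541, and Emcn is higher in every CM-KO pool of both assays.

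The ratio of footprints to RNA, the ribosome occupancy of an mRNA, changed with genotype for none of the 33 markers, where 0.84% of all 15231 genes changed. One marker, Klf4, had an unadjusted p under 0.05, as did 946 of all genes, and DESeq2 called none of the markers. Blocking the libraries by pool took the count of all genes called from 128 to 226 and left the markers at 0. The median change was 0.08 on the log2 scale for the markers and -0.01 for all genes. Without CM-KO pool 1 the marker median was 0.24, and without CM-KO pool 2 it was -0.00, while the count of all genes called ran from 9 to 113 as single pools were left out. For Klf4 the log2 ratio, scaled over the 12 libraries, was -1.21, -0.71 and -1.06 in the WT pools and -1.46, -1.99 and -2.04 in the CM-KO pools. The pools did not overlap, and the change was -0.85 (SE 0.248, 95% interval -1.37 to -0.33), with an adjusted p of 0.178 and values below 0 under all 12 alternative settings, among them -1.08 from CM-KO pool 3 alone (adjusted p = 0.804). Sox17 went the other way at 0.41 (95% interval -0.27 to 1.09), and the intervals of the 33 genes had a median half-width of 0.45.

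In the control hearts most marker mRNAs carried more footprints per RNA than the average mRNA. Of the 33, 28 were called above the scaled average at an adjusted p under 0.05, against 37.9% of the 14037 genes tested, and 3 were called below it, against 36.6%. By sign alone 29 markers and 7315 of all genes were above 0. The marker median was 0.77 on the log2 scale, against 0.05 for all genes, and 19 markers exceeded the upper quartile of all genes, 0.69. The highest were Icam2 at 2.03 (SE 0.0758), Cdh5 at 2.00 (SE 0.0627), Ramp2 at 1.79, Mmrn2 at 1.65 and Kdr at 1.52. For Cdh5 the 3 WT pools gave 2.00, 1.93 and 1.80 on the 12-library scale and for Kdr 1.44, 1.52 and 1.34. The WT pools of Sox17 were wider apart, at -0.85, -0.35 and -0.20. Cell-type lists described below had medians of 2.00 (liver, gut and yolk sac), 1.39 (cardiomyocyte), 1.18 (erythroid), 1.10 (epicardium) and 0.79 (cushion mesenchyme). Macrophage, megakaryocyte and neural lists gave 0.54, 0.49 and -0.01. Of 38 further endothelial genes tested, 18 were called above and 12 below, with a median of 0.19. A ratio above the average was thus not particular to these markers.

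By role, medians were 1.16 for adhesion proteins (0.92 to 2.03), 0.91 for the other surface and secreted proteins (0.14 to 1.79), 0.70 for the receptors (0.35 to 1.52) and 0.32 for the transcription factors (-1.49 to 0.96). These ranges overlapped, and the differences between roles were not tested. All 3 mRNAs called below the average encode transcription factors, namely Fli1 at -1.49 (SE 0.0762), Klf4 at -0.92 (SE 0.186) and Nfatc1 at -0.30 (SE 0.0634). Fli1 gave -1.38, -1.45 and -1.87 in the WT pools. The related ETS factors Erg and Ets1 were at 0.63 and 0.48, and Klf2 at 0.96. Sox17, at -0.37 (adjusted p = 0.153), and Egfl7, at 0.14 (adjusted p = 0.229), did not pass the test. Some calls depended on 1 pool: Egfl7 was called without WT pool 1 (0.27, adjusted p = 0.0328), Npr3, at 0.27, was not called without WT pool 3 (adjusted p = 0.111), Sox18, at 0.32, was not called without WT pool 2 (adjusted p = 0.0554), and Sox17 was called without WT pool 3 (-0.59, adjusted p = 0.041).

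**Figure D4:**
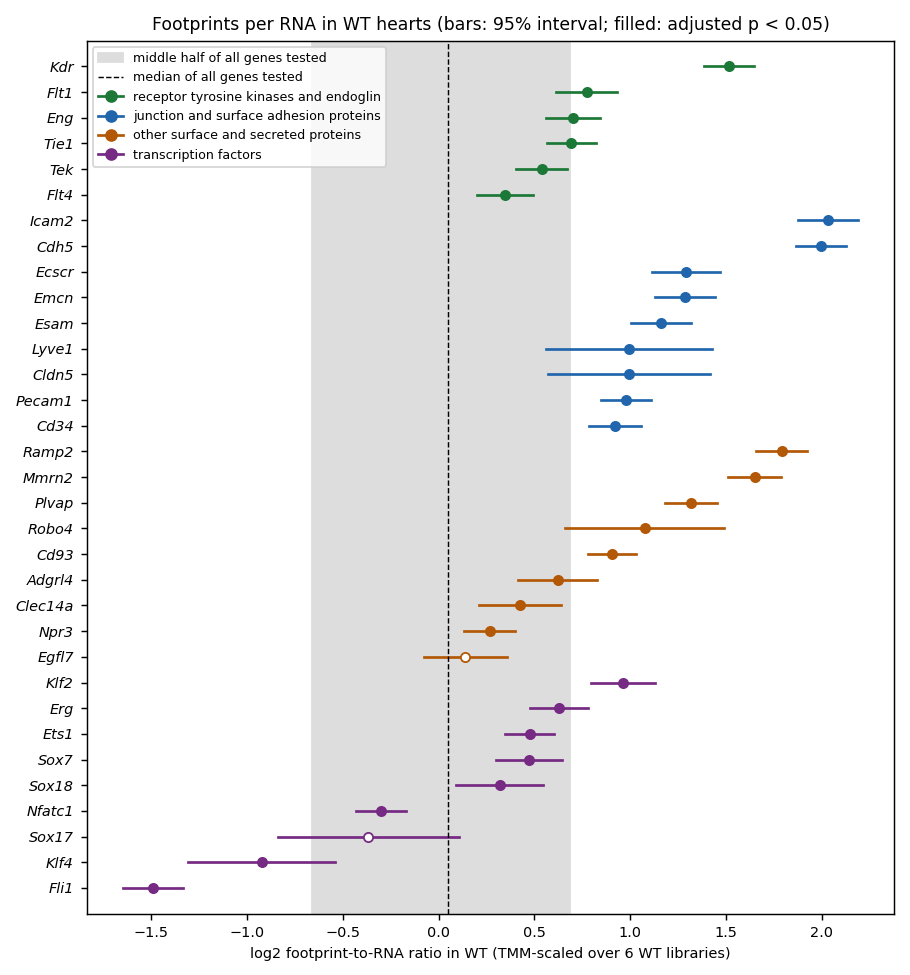
Log2 footprint-to-RNA ratio of the 33 markers in the 3 WT pools, with 95% intervals as bars; filled symbols have an adjusted p under 0.05, the dashed line is the median of all genes tested (0.05) and the grey band runs from their lower to their upper quartile (-0.66 to 0.69). The symbols of all adhesion genes lie to the right of the band, and Fli1 lies to its left at -1.49.

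Because footprints arise mainly from coding sequence and RNA reads from the whole transcript, the ratio was also taken per length, with footprints per kilobase of coding sequence and RNA per kilobase of exon of the canonical GENCODE transcript. Then 23 of the 33 markers were above the median of protein-coding genes, and the marker median was 0.56 higher than that median. Coding sequence made up a median 53.1% of the marker transcripts and 47.0% of the transcripts of 13201 protein-coding genes. Across the markers the ratio and the coding percentage had a Spearman rho of 0.14 and a Pearson r of -0.04 (n = 33 genes of the same libraries), against 0.23 and 0.24 across the protein-coding genes. Icam2, with a canonical 3′ UTR of 5324 bases, was at percentile 98.2 of all genes without and 99.8 with the length correction, Cdh5 at 98.0 and 91.0, Tek at 70.2 and 44.9, and Fli1 at 8.36 and 9.97. No source used here states which part of a transcript the authors counted, so the per-length values rest on this assumption. The markers lie on 14 chromosomes. In GRCm39, Klf4 spans chr4:55527139-55532528, Emcn chr3:137046794-137138999, Cdh5 chr8:104828231-104871143 and Kdr chr5:76093487-76139884.

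The markers shared a shift between pools of one genotype that was larger than their shift between genotypes. The median deviation of the 33 from their mean over 6 libraries was -0.13, -0.02 and 0.14 (log2) in the WT RNA pools and 0.04, 0.06 and -0.08 in the CM-KO RNA pools. That of all genes tested stayed within -0.01 and 0.02, where TMM scaling is built to hold it near 0. In footprints the marker median deviation was -0.21, -0.05 and 0.17 in the WT pools and -0.17, 0.21 and 0.07 in the CM-KO pools. WT pool 1 held the lowest RNA value of the 6 for 11 markers (33.3%, against 19.8% of all genes) and WT pool 3 the highest for 13 (39.4%, against 14.4%). In footprints CM-KO pool 2 was highest for 18 markers (54.5%, against 20.7% of all genes). There WT pool 1 was lowest for 17 (51.5%, against 20.5%) and CM-KO pool 1 for 11 (33.3%, against 21.2%). Some cell-type lists described below shared the footprint shift. The cushion mesenchyme median was -0.22 for WT pool 1, -0.14 for CM-KO pool 1 and 0.15 for CM-KO pool 2. Cardiomyocyte markers had -0.20 for CM-KO pool 1 and 0.11 for CM-KO pool 2, but 0.05 for WT pool 1. Epicardial markers differed, at 0.08 for WT pool 1 and -0.205 for WT pool 3. Further endothelial genes, also described below, had -0.07 for WT pool 1, -0.13 for CM-KO pool 1 and 0.11 for CM-KO pool 2. The footprint shift was thus not particular to the 33 markers, and its cause was not tested. In RNA, WT pools 1 and 3 gave -0.17 and 0.05 for flow-response genes and -0.04 and 0.06 for further endothelial genes. Cardiomyocyte and epicardial RNA went the other way, at 0.10 and 0.06 in WT pool 1 and -0.04 and -0.06 in WT pool 3. The summed level of the 33 was 2742, 3007 and 3336 CPM in the WT RNA pools and 3193, 3194 and 2870 in CM-KO, so the genotypes overlapped. Leaving out WT pool 3 brought the marker median log2 fold change to 0.08 for RNA and 0.14 for footprints, and CM-KO pool 3 alone gave -0.06 and 0.08. The receptors, adhesion and other surface genes moved together in this way, with WT RNA medians of -0.18, -0.16 and -0.14 in pool 1 and 0.17, 0.12 and 0.21 in pool 3, whereas the transcription factors gave 0.01 and -0.00.

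**Figure D5:**
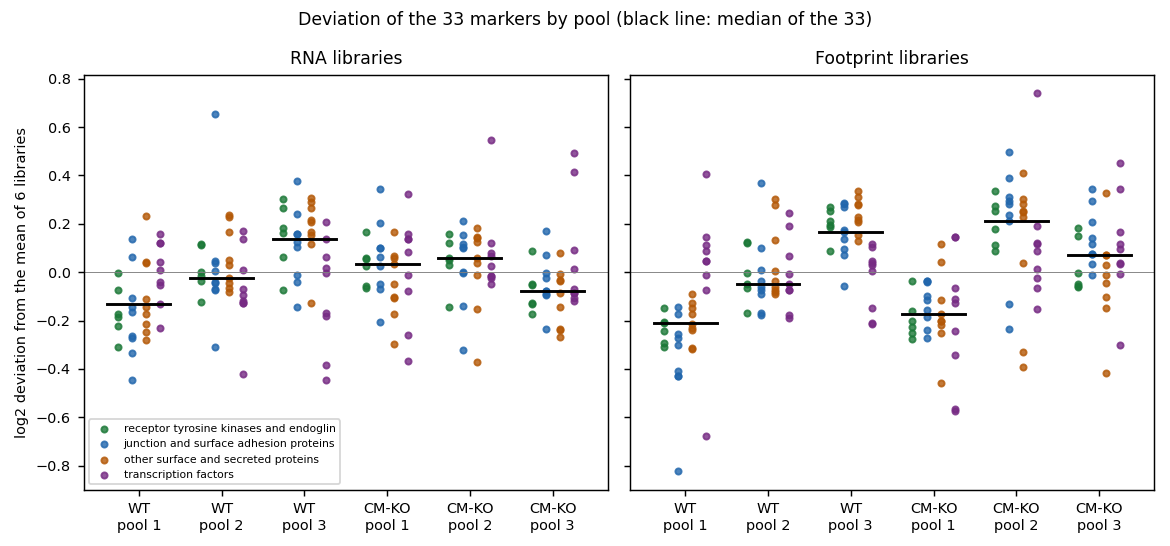
Deviation of each marker from its mean over the 6 libraries of an assay, in log2 units, for RNA (left) and footprints (right); each point is a gene, colours give the role, and the black line is the median of the 33. The RNA median goes from -0.13 in WT pool 1 to 0.14 in WT pool 3, a spread wider than that between the genotypes.

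Ligands and partners of these receptors came from lists of related genes. Over all genes, 4.37% were called in RNA. The lists were chosen with earlier results of these data known, so their counts cannot be weighed against that share. Of 17 VEGF ligands, co-receptors and effectors tested, 2 rose in RNA and none fell. These were Mapkapk2, a kinase downstream of p38, from 244 ± 4.18 to 352 ± 34.5 CPM (log2 fold change 0.53, adjusted p = 0.00492), and Src, from 76.4 ± 2.46 to 95 ± 8.0 CPM (0.31, adjusted p = 0.0418). Neither gene is restricted to endothelium, so the values are those of the whole heart. Mapkapk2 occupancy fell by 0.93 in log2 units, with an adjusted p of 0.00145. Its footprints were at 93.1 ± 2.16 CPM in WT and 69.8 ± 3.98 in CM-KO (log2 fold change -0.42, adjusted p = 0.0732). Of 8 angiopoietin ligands and TIE partners and 12 endothelial Notch genes, none passed the test in RNA, footprints or occupancy with edgeR, although 2 of each list had an unadjusted p under 0.05 in RNA.

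Of 19 genes of endoglin and ALK1 signalling, Smad4, the common SMAD, and Bmpr1a, a type I BMP receptor, rose in RNA by 0.56 and 0.28 on the log2 scale (adjusted p = 0.00262 and 0.0433). Bmp10, the trabecular myocardial ligand of ALK1, fell by 0.32 (adjusted p = 0.0358), from 64.4 ± 4.73 to 51.6 ± 2.13 CPM. Smad4 occupancy fell by 0.66 (adjusted p = 0.00884). Its footprints were at 84.4 ± 2.66 CPM in WT and 78.4 ± 3.04 in CM-KO (log2 fold change -0.10, adjusted p = 0.754). Footprints of Bmpr1a were at 97.7 ± 15.4 and 88.4 ± 6.32 CPM and those of Bmp10 at 89.0 ± 12.2 and 85.4 ± 7.98, and neither was called. Of 19 genes tested from a list tied to blood flow, which also holds sensors and signalling components such as Piezo1 and Mapk7, 2 rose. Edn1, the gene of the vasoconstrictor endothelin-1, rose from 13.6 ± 1.18 to 22.9 ± 2.11 CPM in RNA (0.75, adjusted p = 0.00284) and from 12.7 ± 0.477 to 25.9 ± 3.90 CPM in footprints (1.03, adjusted p = 0.0207). Thbs1, which encodes the matrix protein thrombospondin-1, rose by 0.59 in RNA (adjusted p = 0.0294). Of 41 further endothelial genes, Tal1 and Lmo2, which encode partners in a haematopoietic and endothelial transcription complex, rose by 0.41 and 0.44 (adjusted p = 0.0298 and 0.0311). Gja5, the gap junction gene of arteries, endocardium and trabecular myocardium, fell by 0.40 (adjusted p = 0.0242).

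Of these 10 RNA results, those of Mapkapk2, Smad4 and Edn1 stayed called whichever single pool was left out. The other 7 were all lost without WT pool 2 and without CM-KO pool 2. Those of Src, Bmpr1a, Thbs1, Tal1 and Lmo2 were also lost without WT pool 1, those of Src and Bmp10 without WT pool 3, those of Src, Bmpr1a, Bmp10, Tal1, Lmo2 and Gja5 without CM-KO pool 1, and those of Bmpr1a, Bmp10, Tal1, Lmo2 and Gja5 without CM-KO pool 3 (adjusted p from 0.0556 to 0.391 where lost). Blocking by replicate number lost the RNA calls of Src, Bmp10, Bmpr1a, Thbs1, Tal1 and Gja5 (adjusted p 0.0507 to 0.138). The model of all 12 libraries lost these and that of Lmo2 (adjusted p 0.0653 to 0.376). RLE scaling lost that of Bmpr1a (adjusted p = 0.0649) and upper quartile scaling that of Lmo2 (adjusted p = 0.0608), while DESeq2 kept every RNA call. Edn1 footprints were not called without WT pool 2, WT pool 3 or CM-KO pool 3 (adjusted p = 0.251, 0.0699 and 0.109). Mapkapk2 occupancy was not called without WT pool 2 or CM-KO pool 3 (adjusted p = 0.059 and 0.178), and Smad4 occupancy was called without WT pool 3 but not without any other single pool (adjusted p from 0.0707 to 0.609).

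From CM-KO pool 3 alone all 13 of these RNA, footprint and occupancy results kept their sign and 3 stayed called. These were Edn1 RNA (0.89, adjusted p = 0.0478), Edn1 footprints (1.12, adjusted p = 0.0298) and Smad4 RNA (0.63, adjusted p = 0.0457). Mapkapk2 RNA was at 0.46 (adjusted p = 0.071), Bmpr1a at 0.29, Bmp10 at -0.30, Tal1 at 0.39, Lmo2 at 0.60 and Gja5 at -0.51. Src, at 0.17 (adjusted p = 0.541), and Thbs1, at 0.36 (adjusted p = 0.21), had been at 0.31 and 0.59 over all pools. Occupancy gave -0.88 for Mapkapk2 and -0.66 for Smad4 (adjusted p = 0.125 and 0.506). The median RNA fold change of the further endothelial genes was -0.02, and the list medians of all 6 sets lay between -0.05 and 0.12.

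Markers of other cell types in the same pools were followed beside these results. Erythroid markers were all above 0 in RNA (23 of 23, 8 of them called, median 0.44), with a summed level of 9573 to 14792 CPM in WT and 13734 to 17013 in CM-KO. Their footprints were fully separate, at 43871 to 58397 CPM summed in WT and 70688 to 90663 in CM-KO, with a median of 0.63 and 23 of 23 at an unadjusted p under 0.05, 1 of them called. Megakaryocyte markers were above 0 for 12 of 12, none called by edgeR and 5 with an unadjusted p under 0.05, with a summed level of 179 to 239 CPM in WT and 215 to 414 in CM-KO, and in footprints 196 to 231 against 278 to 398, where 10 of 12 had an unadjusted p under 0.05. Tal1, Lmo2, Fli1, Erg and Pecam1 are also known in blood lineages. The part of blood cells in their values and in those of the other markers, Klf4 and Emcn among them, was not tested. Macrophage markers had a median of 0.33 with 1 of 15 called, at 63.5 to 80.6 CPM summed in WT and 75.3 to 95.1 in CM-KO, and in footprints at 71.0 to 91.3 against 100.4 to 130.2 without overlap (median 0.45, 1 of 15 called). Of 20 cardiomyocyte markers 5 rose and 3 fell in RNA, and 2 fell in footprints. Epicardial markers (0 of 11 called, 0 of 11 at an unadjusted p under 0.05) and cushion mesenchyme markers (1 of 15, Prrx2, higher) had RNA medians of 0.06 and -0.03. In footprints 10 of 11 epicardial markers were above 0 and 3 had an unadjusted p under 0.05, with 0 called and a median of 0.06. Prrx2 footprints were at -0.33 (adjusted p = 0.309), and its occupancy was called lower (-0.99, adjusted p = 0.0048). Neural and neural crest markers had an RNA median of 0.18, with 0 of 8 called and 1 at an unadjusted p under 0.05. Their footprint median was 0.47, with 4 of 7 above 0, 0 called and 1 at an unadjusted p under 0.05. Liver, gut and yolk sac markers varied most between pools among these lists, with median log2 deviations from -1.64 in CM-KO pool 2 to 1.09 in WT pool 3, and 0 of 16 were called or had an unadjusted p under 0.05. Their summed RNA level was 134 to 535 CPM in WT and 74.9 to 413 in CM-KO, and their part in the marker values was not tested.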

How the data were processed

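Per the labels' protocols, a service provider ran its own pipeline (build mm39) and feature counter. No source used here names the aligner, the annotation, the strand setting or the counted part. The deposited values used were raw read counts per gene. The authors' RPM columns and their occupancy ratio (footprint over RNA coverage) were not tested. Log2 fold changes and p-values (adjusted) of the authors' deposited table come from DESeq2 for RNA per the labels and for footprints per the file headers. A blank cell hides at most 10 counts.

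Groups came from the labels. RNA and footprints were each compared over 3 WT and 3 CM-KO libraries by quasi-likelihood F-tests in edgeR (version 4.0.16, R 4.3.3; TMM scaling, filterByExpr with minimum count 10 and minimum total 15), occupancy change as the interaction of genotype and assay over 12 libraries, and WT occupancy with pool as a block, since both libraries of a pool come from the same hearts. P-values were adjusted by Benjamini-Hochberg over all genes tested and called under 0.05. For RNA and footprints they measure the spread between pools. The main test of occupancy change had no pool term, so both libraries of a pool counted as independent there. With pools as a block in edgeR the adjusted p for occupancy was 9.74e-05 for Mapkapk2 and 0.00628 for Smad4. With RLE scaling in edgeR it was 0.0286 for Mapkapk2 and 0.231 for Smad4, so Smad4 occupancy was not called there. Standard errors are the fold change divided by the square root of F, and 95% intervals follow from them. Per-pool log2 ratios used a prior count of 1. DESeq2 1.42.0, other scalings, no filter, replicate blocks and left-out pools were alternatives. The scripts were checked on simulated data. Deviations of same-numbered footprint pools correlated with r = 0.423, 0.179 and 0.144 over 9896 genes. Footprint results are also given blocked by that number, though the labels name no batch.

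The members and lists were chosen with earlier results of these data known. Values in every pool are given for members called in any comparison of genotypes or under 0.05 in the authors' deposited table, the 5 with the smallest p in each comparison of genotypes, and Pecam1, Cdh5, Kdr, Tek, Nfatc1, Klf2 and Npr3; for the other members, Flt1 and Erg among them, ranges are given. Gene features are those of the Ensembl canonical transcript in GENCODE vM39.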

Additional observations from a re-analysis of the deposited data

How the results depend on the processing

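Among the 33 markers, the count called in RNA was 1 and became 2 with DESeq2, 0 with the replicate block and 0 from CM-KO pool 3 alone, and it ran from 0 to 2 as single pools were left out. Same-numbered pools share only a number by the labels, and in RNA their deviations gave r = -0.251, 0.21 and -0.538 over 11080 genes. The count of all genes called in RNA was 750, and 367 with the replicate block, 126 from CM-KO pool 3 alone and 355 with all 12 libraries in one model, and 207 to 783 without single pools. For footprints 1 marker was called with the replicate block and none otherwise. The count over all genes was 35, and 60 with upper quartile scaling, 184 with DESeq2, 203 with the replicate block, 54 from CM-KO pool 3 alone, 100 with all 12 libraries in one model and 1 to 94 without single pools. For occupancy no marker was called under any setting run. The count over all genes was 128, and 41 with RLE scaling, 248 with upper quartile scaling, 226 with the replicate block, 5 from CM-KO pool 3 alone and 9 to 113 without single pools, and the marker median went from -0.0049 to 0.24 without single pools. In WT hearts the marker median of occupancy, 0.77, was 0.91 without the filter on low counts and 0.68 to 0.86 without single pools. Without the replicate block 28 markers were called in place of 31. Over the 33 markers and all settings, calls changed in 17 instances in 9 genes, 10 of them in WT occupancy. Beside those given above, Klf4 RNA had an adjusted p of 0.0521 with the replicate block, and in WT occupancy Nfatc1 had 0.0847 without the filter, Sox18 0.0915 with DESeq2, Egfl7 0.0212 without the filter, and Npr3, Flt4 and Clec14a 0.0761, 0.0604 and 0.0649 without the block. The cause of these changes was not tested. Depth limits Klf4 and Sox17 footprints most, with 32 to 42 and 26 to 80 counts in a pool.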

Other observations

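The authors' deposited table has 846 genes under an adjusted p of 0.05 for RNA, 152 for footprints and 310 for occupancy. Among the 33 markers 2, 0 and 0 were under it. For Klf4 the authors' deposited table gives log2 fold changes of 0.73 for RNA, -0.12 for footprints and -0.86 for occupancy, with adjusted p-values of 0.0013, 1.00 and 0.16. For Emcn the authors' deposited table gives 0.33, 0.45 and 0.12, with adjusted p-values of 0.0457, 0.125 and 1.00.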
